A study of Homo sapiens with 18 samples.

Results

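The genes described here are 34 genes of the endoplasmic reticulum (ER) stress system, out of 18132 genes measured on arrays of 2 human colorectal cancer cell lines, WiDr and HT29. They were taken from the array's annotation by gene symbol, and all 34 were measured. Each gene was read from 1 probe set, the one with the highest mean log2 signal over the 18 arrays, so that 5 members had a single probe set and 29 had others that were set aside. By role the members are 3 stress sensors, 3 transcription factors, 10 chaperones, 7 disulfide enzymes or their partners, 4 degradation factors, 5 translocation factors and 2 subunits of the COPII export coat.

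The 18 arrays form 6 groups of 3. WiDr was treated with AZ628, an inhibitor of RAF kinases, or with vehicle, and in a separate pair of groups carried either an shRNA that targets IKKα, a kinase whose gene is CHUK, or a control shRNA. HT29 was treated with AZ628 or with vehicle. Both lines are known to carry an activating BRAF mutation, and WiDr is known in cell collections as a derivative of HT29. The labels give no dose or duration of AZ628, no shRNA sequence and no number of clones, and are silent on whether replicate arrays stem from different cultures, so p-values cover array-to-array spread, which may be technical.

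In background, proteins that enter the secretory pathway cross the ER membrane through the SEC61 channel, fold with the help of BiP (HSPA5), GRP94 (HSP90B1) and the lectin chaperones calnexin and calreticulin, gain disulfide bonds from the protein disulfide isomerases, and leave in COPII vesicles. Unfolded protein in the ER is sensed by IRE1 (ERN1), PERK (EIF2AK3) and ATF6. IRE1 splices the XBP1 message into one that encodes an active transcription factor, PERK lowers translation and favours ATF4, and ATF6 is cut in the Golgi to release a transcription factor. Splicing, phosphorylation and cleavage are not read by these arrays, which report only message levels.

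All values are log2 signals, in which a difference of 1 is a 2-fold difference, and levels are compared only within a gene. A change passed when its adjusted p, from a limma fit over all 18 arrays and 18132 genes, was under 0.05. All members but ERN1, CALR and ERO1B had a mean signal above that of the median gene. The shares of all genes given below include dim genes and are not matched to the members' signal. Arrays of 1 group correlated at 0.997 to 0.999 over all genes, against 0.956 to 0.996 between groups. The shRNA was checked on its target: CHUK had log2 signals of 7.68, 7.23 and 7.65 with the IKKα shRNA and 9.68, 9.45 and 9.78 with the control shRNA, without overlap. Markers of fibroblasts (6 of 6 measured), blood cells (3 of 3) and endothelium (3 of 3) lay below the median gene in every group, while at most 3 of 10 colon epithelial markers did. The summed signal of 10 markers of goblet and other secretory cells moved with the groups. The log2 of their summed signal was 12.01 to 12.07 with AZ628 against 13.12 with vehicle in WiDr, 12.00 to 12.09 with the IKKα shRNA against 13.24 to 13.29 with the control shRNA, and 13.22 to 13.30 with AZ628 against 14.17 to 14.24 with vehicle in HT29. A sum follows its brightest genes, and the single markers differed. With AZ628, 1 of the 10 was higher and 4 lower in WiDr, and 3 were higher and 3 lower in HT29. With the IKKα shRNA 0 were higher and 7 lower. Of all genes, 23.4% were higher and 21.1% lower, 22.5% and 21.0%, and 15.9% and 19.0% in these comparisons. The part of these markers in the changes below was not tested.

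The stress response acts on many such genes through short promoter elements. They are shown here to divide the members into those with and those without an exact match in the stretch searched. Near matches were not counted, so a member without an exact match may still hold a variant of the element. The ER stress response element (ERSE) is CCAAT, 9 bases of any kind, then CCACG, and ERSE-II is ATTGG, 1 base of any kind, then CCACG. Of the 34 members, 32 matched the RefSeq promoter table (GRCh38.p14), which holds 250 bases before and 50 after each start site, with 43 promoters in all. Both strands were searched. An exact ERSE stood in 10 of these 43 promoters (23.3%), against 27 of all 35116 promoters (0.0769%), the members included. The 9 different sites are written in the orientation of the motif with 6 flanking bases on each side, and capitals mark the element.
HSPA5: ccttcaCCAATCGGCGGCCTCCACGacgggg
HSP90B1, farther site: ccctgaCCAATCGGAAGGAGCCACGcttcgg
HSP90B1, nearer site: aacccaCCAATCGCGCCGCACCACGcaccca
CALR: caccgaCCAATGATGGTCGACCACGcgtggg
CANX: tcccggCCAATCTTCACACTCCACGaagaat
PDIA6: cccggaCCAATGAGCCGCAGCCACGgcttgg
CRELD2: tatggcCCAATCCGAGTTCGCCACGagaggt
ERO1B: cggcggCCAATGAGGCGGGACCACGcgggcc
XBP1: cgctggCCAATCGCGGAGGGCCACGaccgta
These 8 genes encode chaperones, disulfide enzymes or partners and the factor XBP1. The HSPA5 site lies at chr9:125241391-125241409, centred at position -57 from the start site, and the XBP1 site at chr22:28800603-28800621, centred at position -43. The CANX site, at chr5:179698778-179698796, falls in 3 overlapping promoters of that gene.

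An exact ERSE-II stood in 3 of 43 member promoters (6.98%), against 19 of all 35116 (0.0541%). They belong to HERPUD1, a membrane protein of ER degradation, and to the chaperones HYOU1 and SDF2L1, and the element is again in capitals.
HERPUD1: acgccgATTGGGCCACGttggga
HYOU1, farther site: cctgggATTGGACCACGtcacgg
HYOU1, nearer site: gtactcATTGGACCACGtcccag
SDF2L1: gttttgATTGGTCCACGcttccg
The HERPUD1 site lies at chr16:56932025-56932035, the HYOU1 sites at chr11:119057380-119057390 and chr11:119057274-119057284, and the SDF2L1 site at chr22:21642114-21642124. The farther HYOU1 site overlaps the only member match of the core of the unfolded protein response element (UPRE), TGACGTGG, which stood in 0.729% of all promoters. The ATF4 composite element, TGATGNAA, stood in the promoters of CREB3L2 and HERPUD1 (2 of 43, 4.65%), near the 3.62% of all promoters. A match is only a run of letters, and no binding was measured here.

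The HERPUD1 promoter is given whole because its gene moved in every comparison of a single pair of groups, and the HSPA5 promoter because its gene is the classical reporter of ER stress. CREB3L2 also passed in each of those comparisons, and its promoter is not given. Capitals mark the elements above, each in the gene's own 5′ to 3′ orientation, so that the ATF4 element of HERPUD1 appears as its reverse complement. The HERPUD1 stretch is chr16:56931892-56932191 on the plus strand and the HSPA5 stretch is chr9:125241294-125241593 on the minus strand.
HERPUD1: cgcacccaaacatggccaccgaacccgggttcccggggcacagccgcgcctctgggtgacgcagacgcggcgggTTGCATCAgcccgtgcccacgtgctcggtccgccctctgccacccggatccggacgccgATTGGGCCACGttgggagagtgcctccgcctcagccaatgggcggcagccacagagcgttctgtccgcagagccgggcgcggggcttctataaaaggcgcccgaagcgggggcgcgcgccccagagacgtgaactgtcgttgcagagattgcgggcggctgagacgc
HSPA5: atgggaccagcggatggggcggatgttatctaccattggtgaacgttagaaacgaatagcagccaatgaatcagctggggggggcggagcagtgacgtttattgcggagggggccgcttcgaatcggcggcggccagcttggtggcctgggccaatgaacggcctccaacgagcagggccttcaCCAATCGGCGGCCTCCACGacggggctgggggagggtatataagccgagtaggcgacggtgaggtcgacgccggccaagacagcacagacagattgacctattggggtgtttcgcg

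**Figure D1:**
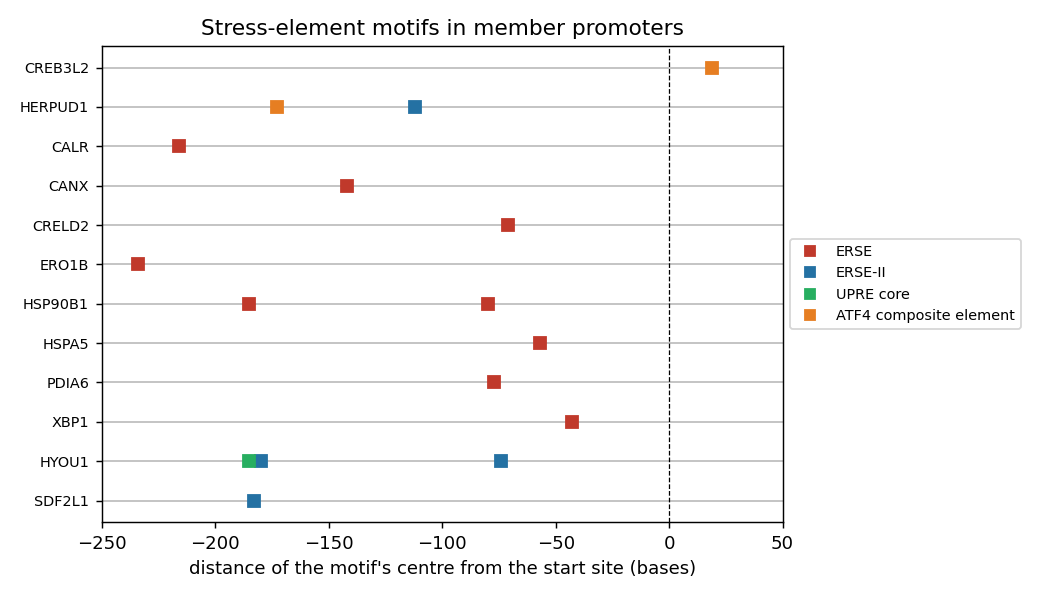
Position of each motif match, in bases from the start site on the x axis, in the first promoter with a match of each of 12 members (rows). ERSE sites (red) lie in 8 genes and ERSE-II sites (blue) in HERPUD1, HYOU1 and SDF2L1; the grey line is the stretch searched, 250 bases before to 50 after the start site.

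The first comparison asked which ER genes differ in WiDr when RAF kinases are inhibited. With AZ628, 17 members were higher, 6 were lower and 11 did not pass, against 23.4% of all genes higher and 21.1% lower. The median change of the members was 0.16 and that of all genes -0.00054. The degradation genes HERPUD1 and SEL1L, the co-chaperones DNAJB9 and DNAJC3, and the disulfide isomerase P4HB rose, while CREB3L1, SDF2L1, ERO1A and DNAJB11 fell. The main chaperones differed little on the probe sets used: HSPA5 rose by 0.19 and HSP90B1 had a change of 0.02 (95% interval -0.10 to 0.14). The 6 probe sets of HSPA5 had changes of 0.19 to 0.42, of which the one used was the lowest. The 7 of HSP90B1 had changes of -0.06 to 0.10.

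Among the sensors, ERN1, the gene of IRE1, had log2 signals of 5.45, 5.33 and 5.36 with AZ628 and 5.21, 5.77 and 5.41 with vehicle, so the groups overlapped (log2 change -0.08, SE 0.11, adjusted p = 0.636). EIF2AK3, the gene of PERK, had 8.33, 8.56 and 8.39 with AZ628 and 8.28, 8.08 and 8.07 with vehicle (0.28, SE 0.10, adjusted p = 0.029). ATF6 had 7.82, 7.73 and 7.69 with AZ628 and 7.63, 7.59 and 7.43 with vehicle (0.20, SE 0.067, adjusted p = 0.0235). In both of these genes every AZ628 array stood above every vehicle array, though by little. XBP1, the target of IRE1, had a change of 0.15 and did not pass (adjusted p = 0.0687).

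The factors CREB3L1 and CREB3L2, relatives of ATF6 that are also released from the membrane by cleavage and are known for inducing secretory and matrix genes, moved farthest. CREB3L1 had log2 signals of 5.82, 6.22 and 6.37 with AZ628 and 9.38, 9.39 and 9.23 with vehicle (log2 change -3.20, SE 0.11, adjusted p = 8.4e-14). Its other probe set, dimmer with a mean of 5.75, had a change of -0.36. CREB3L2 had 9.19, 9.32 and 9.15 with AZ628 and 7.68, 7.72 and 7.71 with vehicle (1.52, SE 0.052, adjusted p = 1.36e-13). The groups of both genes lay far apart, in opposite directions. The rise of CREB3L2 rests on 1 probe set of 7, since the other 6 had means of 3.05 to 4.81 and changes of -0.24 to 0.14. Without probe sets shared between transcripts (those with names ending in _s_at or _x_at), its change was -0.03.

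Of the 10 chaperones, 4 rose and 4 fell. DNAJC3, a co-chaperone known as an inhibitor of PERK, had log2 signals of 9.84, 9.92 and 9.72 with AZ628 and 9.21, 9.22 and 9.19 with vehicle (0.62, SE 0.088, adjusted p = 1.01e-05). SDF2L1, a partner of BiP and its J proteins, had 9.34, 9.54 and 9.36 with AZ628 and 10.03, 10.11 and 10.10 with vehicle (-0.67, SE 0.062, adjusted p = 6.23e-08). DNAJB9, a J protein of BiP and a known XBP1 target, rose by 0.61, and HSPA5 and CANX rose by 0.19 and 0.16. The DNAJC3 arrays were all higher and the SDF2L1 arrays all lower with AZ628. DNAJB11, another J protein, fell by 0.33, and HYOU1 and MANF each fell by 0.16. CALR, read only by 2 dim probe sets, and HSP90B1 did not pass.

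Of the 7 disulfide genes, 4 rose and 1 fell. P4HB, PDIA3 and PDIA4, isomerases of the ER lumen, rose by 0.47, 0.34 and 0.32, and CRELD2 rose by 0.21. ERO1A, the oxidase that recharges the isomerases and is also known to respond to hypoxia, fell by 0.46. Its relative ERO1B had a change of 0.06, but the probe set used was dim, with a mean of 3.82. The 4 probe sets of ERO1B had changes of 0.06 to 0.65, so its response is poorly read here. Without probe sets shared between transcripts, PDIA3 had a change of 0.11 and did not pass.

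Of the 4 degradation genes 3 rose and none fell. HERPUD1 had log2 signals of 10.44, 10.46 and 10.38 with AZ628 and 9.58, 9.62 and 9.51 with vehicle (0.86, SE 0.066, adjusted p = 4.69e-09). SEL1L, the scaffold of the ubiquitin ligase HRD1, had 10.89, 10.82 and 10.77 with AZ628 and 10.04, 10.09 and 10.10 with vehicle (0.75, SE 0.071, adjusted p = 6.74e-08). Every AZ628 array of both genes stood above every vehicle array. The 4 probe sets of HERPUD1 had changes of 0.48 to 0.86, and the 4 of SEL1L -0.08 to 0.75. EDEM1, a lectin that extracts misfolded glycoproteins, rose by 0.24, and SYVN1, the ligase HRD1 itself, had a change of 0.14 that did not pass.

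Of the 5 translocation genes only SPCS2, a signal peptidase subunit, passed, at 0.17. Both COPII coat genes rose, SEC24D by 0.43 and SEC31A by 0.46. SEC31A had a change of 0.02 without probe sets shared between transcripts. SEC24D had a change of 0.03 in the mean of its probe sets.

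Several of the smaller calls in WiDr were lost when 1 of several arrays was left out. ATF6 no longer passed without AZ628 replicate 1 or vehicle replicate 3 (adjusted p = 0.102 and 0.144). CANX did not pass without AZ628 replicate 2 or vehicle replicate 1 (0.0584 and 0.0854), and SEC24D without AZ628 replicate 2 or vehicle replicate 2 (0.0624 and 0.0625). EIF2AK3 did not pass without AZ628 replicate 2 or vehicle replicates 2 or 3 (0.138, 0.0953 and 0.102), and CRELD2 without AZ628 replicate 2 or vehicle replicates 1 or 3 (0.0903, 0.0554 and 0.0596). HYOU1 lost its call without AZ628 replicates 1 or 2 or vehicle replicates 1 or 2 (0.0529 to 0.107), MANF without AZ628 replicates 1 or 3 or vehicle replicates 1 or 3 (0.0567 to 0.148), and SPCS2 when any array except AZ628 replicate 3 was left out (0.0556 to 0.179). XBP1 passed without vehicle replicate 2 (0.0475). In the mean of their probe sets ATF6, CRELD2 and EDEM1 had changes of 0.12, 0.15 and 0.09 and did not pass, and HSPA5 did not pass without probe sets shared between transcripts (0.28, adjusted p = 0.0782). Of the 17 higher members 6 passed under every alternative tried (DNAJB9, DNAJC3, HERPUD1, P4HB, PDIA4 and SEL1L), as did 4 of the 6 lower ones (CREB3L1, DNAJB11, ERO1A and SDF2L1). DNAJB9 was tried under 12 alternatives and the others under 13. It had no value without probe sets shared between transcripts. The 3 probe sets of DNAJB9 had changes of 0.28 to 0.81, and the 3 of DNAJC3 -0.03 to 0.62.

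**Figure D2:**
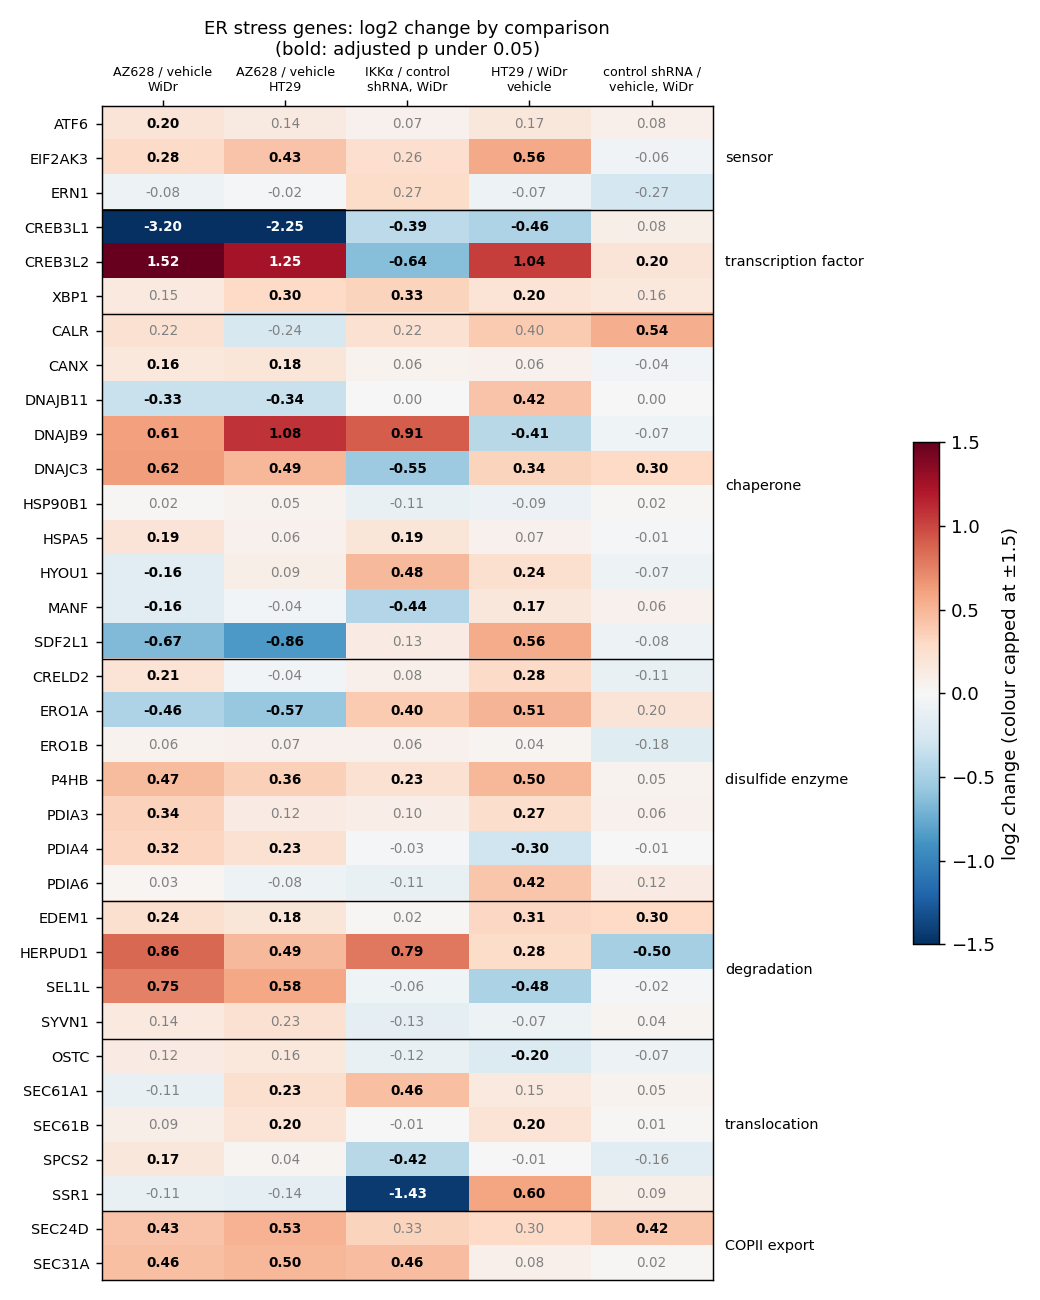
Log2 change of each of the 34 members (rows, grouped by role) in 5 comparisons (columns, the group named first over the one named second), with values printed and bold where adjusted p was under 0.05. CREB3L1 (-3.20 and -2.25) and CREB3L2 (1.52 and 1.25) stand out with AZ628, and SSR1 (-1.43) with the IKKα shRNA; colour is capped at 1.5 either way.

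The same question was asked in HT29. With AZ628, 15 members were higher, 4 were lower and 15 did not pass, against 22.5% of all genes higher and 21.0% lower, and the median change was 0.15 against 0.00 for all genes. The lower members were again CREB3L1, DNAJB11, ERO1A and SDF2L1. The comparisons in the 2 lines share no arrays. In both lines 12 members were higher, 4 were lower, and 0 passed in opposite directions, against 18.4%, 17.0% and 0.502% of all genes. The 12 were CREB3L2, EIF2AK3, CANX, DNAJB9, DNAJC3, P4HB, PDIA4, EDEM1, HERPUD1, SEL1L, SEC24D and SEC31A.

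CREB3L1 had log2 signals of 6.64, 6.60 and 6.65 with AZ628 in HT29 and 8.98, 8.86 and 8.79 with vehicle (-2.25, SE 0.11, adjusted p = 9.87e-12). CREB3L2 had 10.03, 9.96 and 9.97 with AZ628 and 8.74, 8.75 and 8.75 with vehicle (1.25, SE 0.052, adjusted p = 2.51e-12), on the same single bright probe set, and -0.02 without probe sets shared between transcripts. DNAJB9 had 9.76, 9.77 and 9.81 with AZ628 and 8.67, 8.55 and 8.89 with vehicle (1.08, SE 0.087, adjusted p = 1.12e-08). None of these groups overlapped, and these were the 3 members that changed over 2-fold in HT29.

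SDF2L1 had log2 signals of 9.85, 9.77 and 9.71 with AZ628 and 10.69, 10.58 and 10.65 with vehicle (-0.86, SE 0.062, adjusted p = 2.51e-09). SEL1L had 10.14, 10.23 and 10.17 with AZ628 and 9.45, 9.71 and 9.64 with vehicle (0.58, SE 0.071, adjusted p = 2.07e-06). ERO1A had 8.82, 8.54 and 9.16 with AZ628 and 9.35, 9.57 and 9.30 with vehicle (-0.57, SE 0.12, adjusted p = 0.000807). The arrays of each pair of groups did not overlap, and the AZ628 arrays of ERO1A ranged most, between 8.54 and 9.16. HERPUD1 rose by 0.49 and DNAJC3 by 0.49, and DNAJB11 fell by 0.34. DNAJC3 had a change of 0.26 and did not pass in the mean of its probe sets.

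The sensors in HT29 differed from each other. EIF2AK3 had log2 signals of 9.15, 8.94 and 9.31 with AZ628 and 8.65, 8.75 and 8.73 with vehicle, without overlap (0.43, SE 0.10, adjusted p = 0.00188). ERN1 had 5.46, 5.38 and 5.26 with AZ628 and 5.54, 5.31 and 5.32 with vehicle, which overlapped (-0.02, adjusted p = 0.897). ATF6 had 7.91, 7.75 and 7.92 with AZ628 and 7.70, 7.73 and 7.74 with vehicle (0.14, adjusted p = 0.123), and passed only without AZ628 replicate 2 (adjusted p = 0.0439). The ATF6 groups lay close but did not overlap, and EIF2AK3 was the 1 sensor that passed in both lines. XBP1 rose by 0.30 in HT29.

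HSPA5 and HSP90B1 did not pass in HT29, at 0.06 and 0.05. The 6 probe sets of HSPA5 had changes of 0.04 to 0.30. Among the disulfide genes P4HB rose by 0.36 and PDIA4 by 0.23, and among the translocation genes SEC61A1 rose by 0.23 and SEC61B by 0.20. SEC61A1 turned to -0.03 in the mean of its probe sets and to -0.10 without those shared between transcripts. PDIA4 lost its call without AZ628 replicates 1 or 3 or vehicle replicates 1 or 3 (adjusted p 0.0533 to 0.208), and EDEM1, at 0.18, without the same replicate numbers (0.0529 to 0.0779). EDEM1 turned to -0.03 in the mean of its probe sets. Without those shared between transcripts CANX (0.25) and SEC31A (0.17) did not pass. Without AZ628 replicate 2 or vehicle replicate 2, OSTC (0.0318 and 0.0287) and SYVN1 (0.0354 and 0.0257) passed.

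The difference between the AZ628 effects of the 2 lines was tested directly, as HT29 minus WiDr. The difference was positive in 3 members and negative in 2, against 4.06% and 5.13% of all genes. It was positive for CREB3L1 (0.95, SE 0.15, adjusted p = 0.000386), which fell less in HT29, for DNAJB9 (0.47), which rose more there, and for SEC61A1 (0.34). It was negative for HERPUD1 (-0.37) and CREB3L2 (-0.27), which rose less in HT29. Only the CREB3L1 difference passed under every alternative tried, and each of the other 4 lost its call when 1 of several arrays was left out (adjusted p 0.0503 to 0.0696). Without probe sets shared between transcripts the CREB3L2 difference turned to 0.015, and SEC61A1 did not pass, at 0.16. The remaining 29 members did not pass, which does not show that the lines responded alike.

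**Figure D3:**
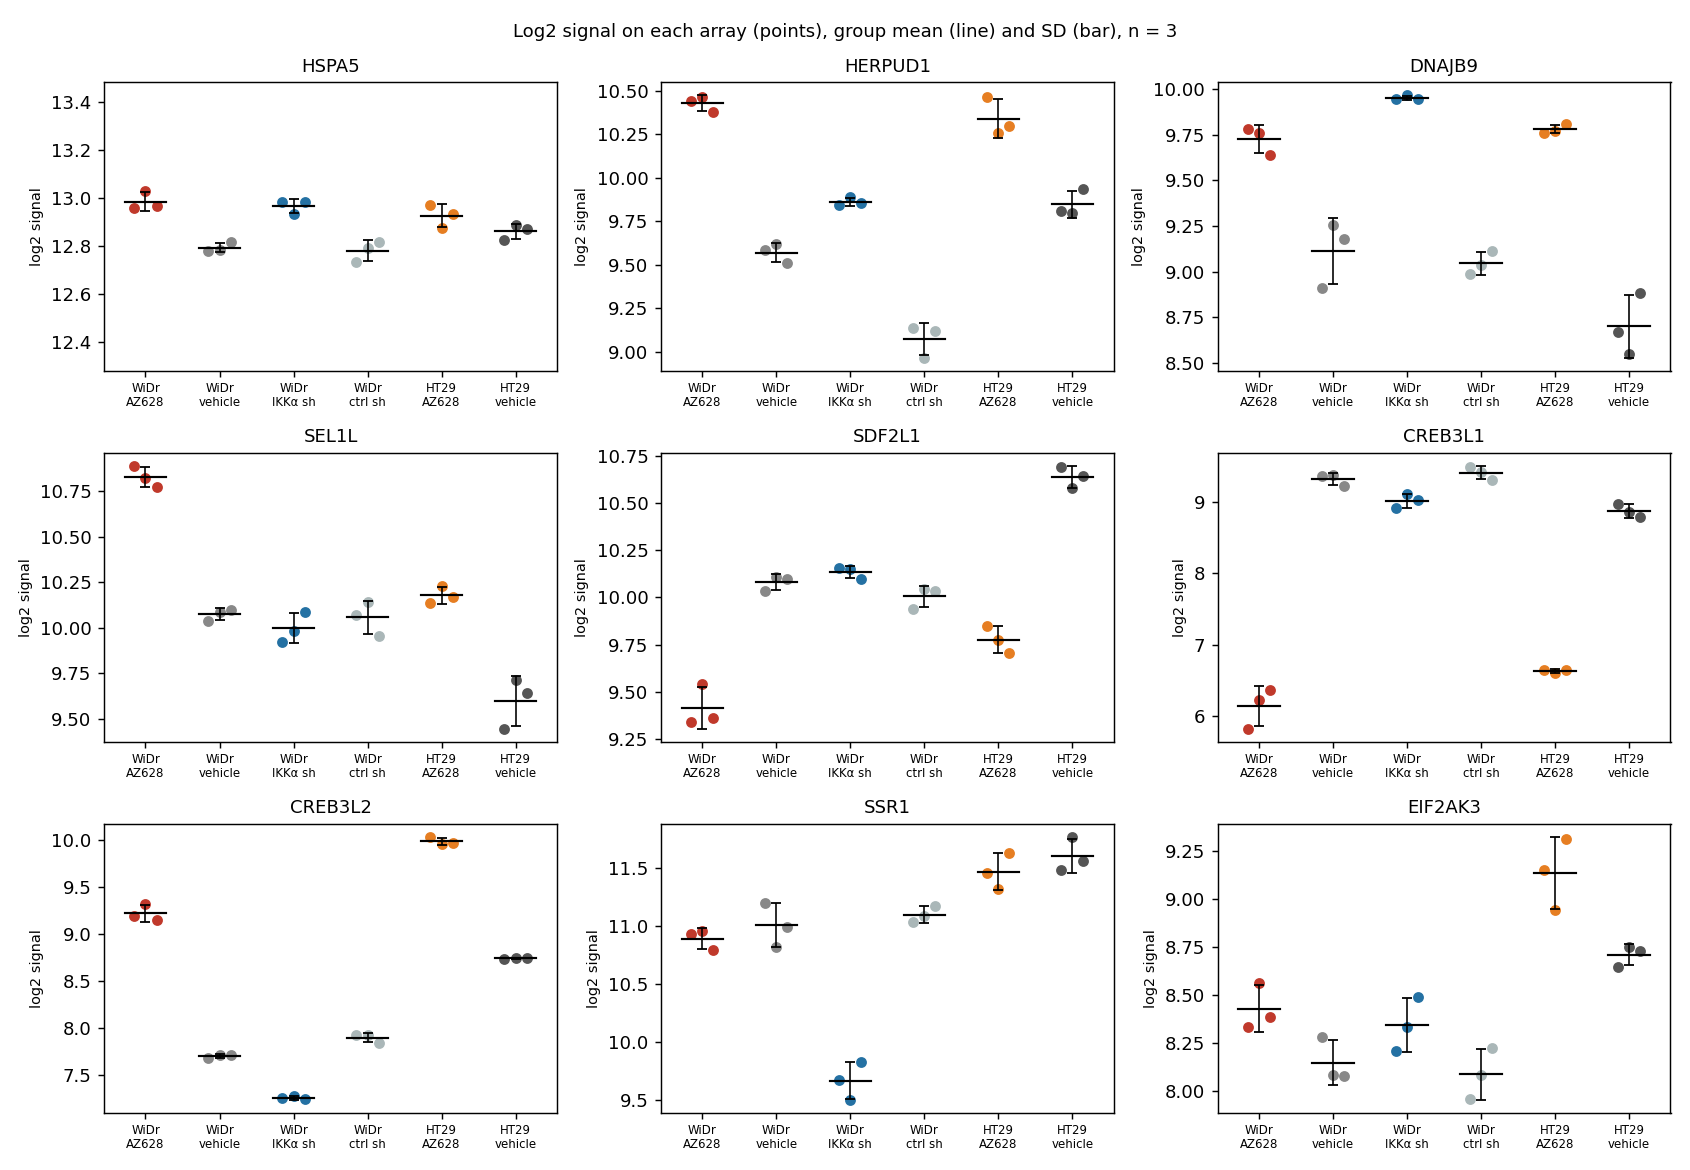
Log2 signal (y axis) of 9 members on each of the 18 arrays, by group (x axis), with the group mean as a line and the SD as a bar (n = 3). CREB3L1 is low and CREB3L2 high on the AZ628 arrays of both lines, SSR1 is lowest on the 3 arrays with the IKKα shRNA (9.50 to 9.83), and HSPA5 lies between 12.73 and 13.03 on all 18 arrays.

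The next comparison asked how the same genes differ in WiDr when IKKα is knocked down. With the IKKα shRNA 9 members were higher, 6 were lower and 19 did not pass, against 15.9% of all genes higher and 19.0% lower, and the median change was 0.07 against 0.02 for all genes. SSR1, a subunit of the translocon-associated TRAP complex, fell most. DNAJB9, HERPUD1 and HYOU1 rose, while CREB3L2, DNAJC3, MANF and SPCS2 fell. HSPA5 rose by 0.19, and its 6 probe sets had changes of 0.0010 to 0.54.

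SSR1 had log2 signals of 9.67, 9.50 and 9.83 with the IKKα shRNA and 11.03, 11.09 and 11.18 with the control shRNA (-1.43, SE 0.11, adjusted p = 9.87e-09). Of its 8 probe sets, 6 had changes of -0.79 or lower, and the others by -0.14 and 0.20. Without probe sets shared between transcripts the probe set that remained brightest gave -0.14 (adjusted p = 0.17). The arrays of SSR1 lay over 1 unit apart between the groups. The other subunits of the TRAP complex had changes of -0.19 (SSR2, which passed), 0.07 (SSR3) and 0.09 (SSR4).

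DNAJB9 had log2 signals of 9.95, 9.97 and 9.94 with the IKKα shRNA and 8.99, 9.04 and 9.11 with the control shRNA (0.91, SE 0.087, adjusted p = 2.13e-07). HERPUD1 had 9.84, 9.89 and 9.85 with the IKKα shRNA and 9.14, 8.96 and 9.12 with the control shRNA (0.79, SE 0.066, adjusted p = 3.58e-08). HYOU1, a nucleotide exchange factor of BiP, had 9.35, 9.38 and 9.30 with the IKKα shRNA and 8.84, 8.95 and 8.81 with the control shRNA (0.48, SE 0.056, adjusted p = 2.28e-06). All IKKα shRNA arrays of these 3 genes stood above all control shRNA arrays. The 3 probe sets of DNAJB9 had changes of -0.0046 to 0.95. The size of the HERPUD1 change depends on the control, because the control shRNA arrays were themselves lower than vehicle by 0.50. Against vehicle, the IKKα shRNA arrays were higher by 0.29 (adjusted p = 0.00182).

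CREB3L2 had log2 signals of 7.25, 7.28 and 7.24 with the IKKα shRNA and 7.92, 7.93 and 7.85 with the control shRNA (-0.64, SE 0.052, adjusted p = 2.46e-08). DNAJC3 had 8.93, 8.85 and 9.10 with the IKKα shRNA and 9.39, 9.41 and 9.72 with the control shRNA (-0.55, SE 0.088, adjusted p = 7.09e-05). Neither pair of groups overlapped. The CREB3L2 change again rests on its bright probe set, and was 0.10 in the mean of all 7 and 0.38 (adjusted p = 0.0255) without those shared between transcripts. Against vehicle the DNAJC3 change was -0.25. MANF, a secreted ER stress protein, fell by 0.44, and CREB3L1 fell by 0.39.

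None of the sensors passed with the IKKα shRNA. ERN1 had log2 signals of 5.55, 5.48 and 5.39 with the IKKα shRNA and 5.28, 5.04 and 5.26 with the control shRNA (0.27, SE 0.11, adjusted p = 0.0713). EIF2AK3 had 8.21, 8.33 and 8.49 with the IKKα shRNA and 7.96, 8.08 and 8.22 with the control shRNA (0.26, SE 0.10, adjusted p = 0.0578). ATF6 had 7.63, 7.76 and 7.71 with the IKKα shRNA and 7.59, 7.58 and 7.72 with the control shRNA (0.07, adjusted p = 0.488). The ERN1 groups did not overlap, while those of EIF2AK3 and ATF6 did. EIF2AK3 passed without IKKα shRNA replicate 1 (adjusted p = 0.0327) or control shRNA replicate 3 (0.0318). XBP1 rose by 0.33.

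Of the other members, P4HB rose by 0.23 and ERO1A by 0.40. ERO1A did not pass without IKKα shRNA replicate 3 (adjusted p = 0.0712) or control shRNA replicate 2 (0.0665). SEL1L, SYVN1 and EDEM1 had changes of -0.06, -0.13 and 0.02, so that HERPUD1 was the only degradation gene of 4 that passed against the control shRNA. Against vehicle EDEM1 also passed, at 0.32 (adjusted p = 0.00056). SEC61A1, the channel subunit, rose by 0.46 and SPCS2 fell by 0.42. SEC31A rose by 0.46, with 0.23 and no call without probe sets shared between transcripts, and SEC24D had a change of 0.33 (adjusted p = 0.0569), against 0.75 over vehicle.

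The IKKα shRNA and AZ628 effects in WiDr share no arrays and were set against each other. DNAJB9, HERPUD1, HSPA5, P4HB and SEC31A were higher and CREB3L1 and MANF lower under both. CREB3L2, DNAJC3 and SPCS2 were higher with AZ628 and lower with the shRNA, and ERO1A and HYOU1 were lower with AZ628 and higher with the shRNA. Of all genes, 5.80% were higher and 6.59% lower under both, 7.73% were higher with AZ628 and lower with the shRNA, and 4.21% were lower with AZ628 and higher with the shRNA. The AZ628 calls of MANF, SPCS2 and HYOU1 are among those lost when 1 of several arrays was left out. In the direct test of the difference, shRNA effect minus AZ628 effect, 6 members were positive and 10 negative, against 20.1% and 22.3% of all genes. The largest were CREB3L1 (2.81), CREB3L2 (-2.16), SSR1 (-1.32), DNAJC3 (-1.17), ERO1A (0.86) and SEL1L (-0.81), with adjusted p between 2.41e-13 and 0.000456. Without probe sets shared between transcripts, CREB3L2 turned to 0.41 and SSR1 to 0.08, and neither passed. EDEM1 (-0.22) lost its call on leaving out each of 9 of the 12 arrays, all but control shRNA replicate 1, AZ628 replicate 3 and vehicle replicate 3 (0.0612 to 0.144). DNAJB11 (0.33) lost it without IKKα shRNA replicate 3, control shRNA replicate 2, AZ628 replicate 3 or vehicle replicate 1 (0.051 to 0.0634), P4HB (-0.24) without IKKα shRNA replicate 3 or control shRNA replicate 2 (0.0555 and 0.051), and PDIA4 (-0.35) without control shRNA replicate 1 (0.052). HSPA5 and SEC31A had differences of -0.0049 and 0.0049, with 95% intervals of -0.15 to 0.14 and -0.20 to 0.21. The sensors did not pass in this test, at 0.35 for ERN1, -0.03 for EIF2AK3 and -0.13 for ATF6, and without vehicle replicate 1 ERN1 passed (adjusted p = 0.0131).

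**Figure D4:**
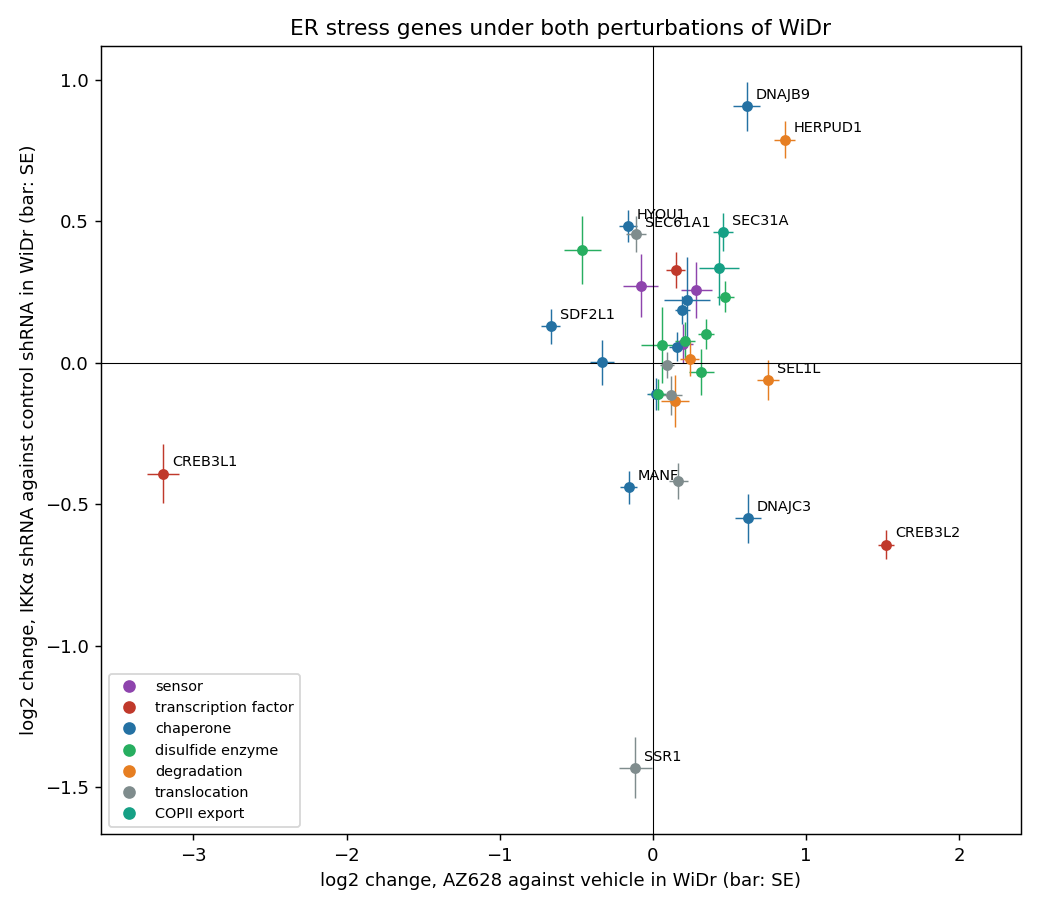
Log2 change with AZ628 against vehicle (x axis) and with the IKKα shRNA against the control shRNA (y axis) in WiDr for the 34 members, coloured by role, with SE bars. DNAJB9 and HERPUD1 lie at the upper right, CREB3L2 (1.52 and -0.64) and DNAJC3 (0.62 and -0.55) at the lower right, and SSR1 (-0.11 and -1.43) near the vertical axis.

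The members were also read by the exact matches in their promoters. Of the 8 members with an ERSE, 3 were higher and 0 lower with AZ628 in WiDr (changes of 0.02 to 0.22), 2 were higher and 0 lower with AZ628 in HT29 (-0.24 to 0.30), and 2 were higher and 0 lower with the IKKα shRNA (-0.11 to 0.33). The shares higher among all genes were 23.4%, 22.5% and 15.9%, and the 10 measured genes with an ERSE that are not members had 4 higher and 0 lower with AZ628 in each line and 2 higher and 2 lower with the shRNA. HSPA5, the gene of BiP, was among those higher with AZ628 in WiDr and with the shRNA. The 3 ERSE-II genes did not move as a unit with AZ628. HERPUD1, HYOU1 and SDF2L1 had changes of 0.86, -0.16 and -0.67 in WiDr, all of which passed, and of 0.49, 0.09 and -0.86 in HT29, where HYOU1 did not pass. With the IKKα shRNA their changes were 0.79, 0.48 and 0.13, of which the first 2 passed.

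Other genes of the pathway, from lists that hold none of the members, were counted in the same fits. Their counts stand against 23.4% of all genes higher and 21.1% lower with AZ628 in WiDr, 22.5% and 21.0% in HT29, and 15.9% and 19.0% with the IKKα shRNA. Of 14 further regulators of the response, 6 were higher and 4 lower with AZ628 in WiDr, 6 and 4 in HT29, and 7 and 2 with the IKKα shRNA. DDIT3, the CHOP gene downstream of PERK and ATF4, rose by 0.76 in WiDr and 0.77 in HT29 with AZ628, and by 1.44 with the IKKα shRNA. TRIB3, another known target of ATF4 and CHOP, fell by 1.93 and 1.25 with AZ628 and rose by 1.31 with the IKKα shRNA. Both rose with the shRNA and they moved in opposite directions with AZ628. EIF2S1, the translation factor that PERK phosphorylates, fell by 1.37 and 1.35 with AZ628.

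Of 12 further ER chaperones and folding factors, 5 were higher and 7 lower with AZ628 in WiDr, 3 and 3 in HT29, and 4 and 4 with the IKKα shRNA. CALU, a calcium-binding protein of the secretory pathway, fell by 0.94 and 0.45 with AZ628 and rose by 1.14 with the shRNA. FKBP11, a prolyl isomerase, fell by 0.92 and 1.01 with AZ628, and its relative FKBP14 rose by 1.74 with the shRNA. Of 12 further disulfide enzymes, 5 were higher and 5 lower in WiDr and 4 and 3 in HT29 with AZ628, and 3 and 2 with the shRNA. PRDX4, an ER peroxiredoxin, fell by 0.90 and 0.63 with AZ628, and GPX8, an ER peroxidase, rose by 0.59 and 0.49 with AZ628 and by 2.51 with the shRNA.

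Of 19 further degradation genes, 8 were higher and 4 lower in WiDr and 7 and 3 in HT29 with AZ628, and 6 and 3 with the IKKα shRNA. OS9, a lectin that delivers substrates to SEL1L and HRD1, rose by 1.08 and 0.93 with AZ628 and by 0.63 with the shRNA. UBE2G2, a ubiquitin-conjugating enzyme of ER degradation, fell by 0.96 and 0.87 with AZ628 and rose by 0.34 with the shRNA. Of 22 further translocation genes, 8 were higher and 8 lower in WiDr and 8 and 3 in HT29 with AZ628, and 4 and 6 with the shRNA. SRPRB, the membrane anchor of the signal recognition particle receptor, fell by 1.49 and 1.05 with AZ628, and SEC63, a channel partner, fell by 0.61 with the shRNA. Of 18 further COPII and retrieval genes, 7 were higher and 4 lower in WiDr and 6 and 5 in HT29, and 2 and 2 with the shRNA. KDELR3, a receptor that returns ER proteins, fell by 1.45 and 0.91 with AZ628 and by 0.96 with the shRNA.

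Chaperones outside the ER were counted as well. Of 12 cytosolic and mitochondrial chaperones, 10 were lower and 1 higher with AZ628 in WiDr (median change -0.45) and 11 were lower and 1 higher in HT29 (median -0.63). HSPA9 and HSPE1, mitochondrial chaperones, fell by 1.17 and 1.08 in WiDr and by 1.12 and 1.14 in HT29, and HSPB1, a small heat shock protein, was the one that rose, by 1.52 and 1.03. The 10 ER chaperones among the members had medians of 0.09 in WiDr and 0.06 in HT29, and the 12 further ER chaperones -0.27 and 0.06. With the IKKα shRNA 3 of the 12 were higher and 4 lower, with a median of -0.01.

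**Figure D5:**
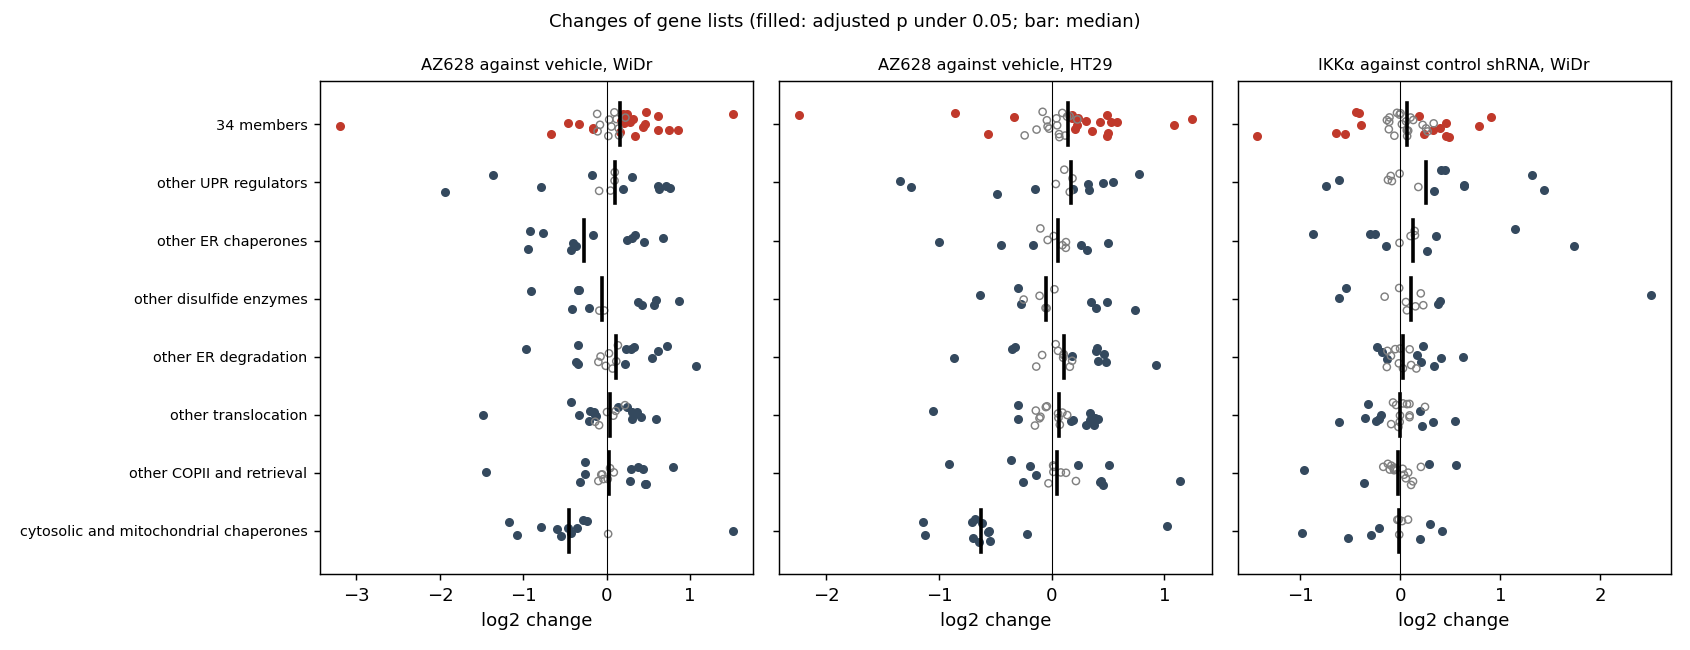
Log2 change (x axis) of the 34 members and of 7 other gene lists (rows) with AZ628 in WiDr, AZ628 in HT29 and the IKKα shRNA in WiDr, with 1 point per gene, filled where adjusted p was under 0.05, and the median as a bar. The cytosolic and mitochondrial chaperones lie to the left of 0 with AZ628 (medians -0.45 and -0.63) apart from HSPB1, while the members' medians are 0.16 and 0.15 and those of the further ER chaperones -0.27 and 0.06.

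The lines were also compared without inhibitor. In HT29 17 members were higher than in WiDr, 5 were lower and 12 did not pass, against 16.9% of all genes higher and 15.3% lower, and the median was 0.20. CREB3L2 had log2 signals of 8.74, 8.75 and 8.75 in HT29 and 7.68, 7.72 and 7.71 in WiDr (1.04, SE 0.052, adjusted p = 7.44e-11), but 0.19 without probe sets shared between transcripts. SSR1 had 11.48, 11.77 and 11.56 in HT29 and 11.20, 10.82 and 11.00 in WiDr (0.60, SE 0.11, adjusted p = 0.000265). EIF2AK3 had 8.65, 8.75 and 8.73 in HT29 and 8.28, 8.08 and 8.07 in WiDr (0.56, SE 0.10, adjusted p = 0.000236). HT29 arrays stood above WiDr arrays throughout these 3 genes.

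SDF2L1 had log2 signals of 10.69, 10.58 and 10.65 in HT29 and 10.03, 10.11 and 10.10 in WiDr (0.56, SE 0.062, adjusted p = 1.53e-06). ERO1A had 9.35, 9.57 and 9.30 in HT29 and 8.99, 8.76 and 8.93 in WiDr (0.51, SE 0.12, adjusted p = 0.00286). P4HB had 12.69, 12.60 and 12.65 in HT29 and 12.12, 12.17 and 12.14 in WiDr (0.50, SE 0.055, adjusted p = 1.27e-06). None of these groups overlapped. The lower members in HT29 were SEL1L (-0.48), CREB3L1 (-0.46), DNAJB9 (-0.41), PDIA4 (-0.30) and OSTC (-0.20), a subunit of the glycosylating complex. ERN1 and ATF6 did not pass, at -0.07 and 0.17.

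Some of these line differences were lost when 1 array was left out. MANF (0.17) did not pass when HT29 vehicle replicate 1 or 2 or any 1 of the WiDr vehicle arrays was left out (adjusted p 0.052 to 0.12). XBP1 (0.20) did not pass without HT29 vehicle replicates 2 or 3 or WiDr vehicle replicates 1 or 3 (0.0527 to 0.104), and OSTC without HT29 vehicle replicates 1 or 3 or WiDr vehicle replicates 1 or 3 (0.0602 to 0.157). PDIA4 did not pass without HT29 vehicle replicate 1 (0.053). The vehicle arrays used here also serve as the controls of both AZ628 comparisons.

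The control shRNA was compared with vehicle in WiDr. The labels set these groups apart by the shRNA and by vehicle treatment, which cannot be told apart here. With the control shRNA 5 members were higher, 1 was lower and 28 did not pass, against 11.6% of all genes higher and 10.6% lower, and the median was 0.02. HERPUD1 had log2 signals of 9.14, 8.96 and 9.12 with the control shRNA and 9.58, 9.62 and 9.51 with vehicle (-0.50, SE 0.066, adjusted p = 6.42e-05), without overlap. SEC24D had 7.41, 7.43 and 7.52 with the control shRNA and 7.26, 6.86 and 6.98 with vehicle (0.42, SE 0.13, adjusted p = 0.0295). DNAJC3 had 9.39, 9.41 and 9.72 with the control shRNA and 9.21, 9.22 and 9.19 with vehicle (0.30, SE 0.088, adjusted p = 0.0214). Both stood above vehicle on all 3 arrays.

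EDEM1 had log2 signals of 9.20, 9.24 and 9.33 with the control shRNA and 8.92, 8.92 and 9.03 with vehicle (0.30, SE 0.062, adjusted p = 0.00278). CREB3L2 had 7.92, 7.93 and 7.85 with the control shRNA and 7.68, 7.72 and 7.71 with vehicle (0.20, SE 0.052, adjusted p = 0.0137). Neither pair overlapped, but in the mean of their probe sets EDEM1 turned to -0.03 and CREB3L2 to -0.11. CALR had a change of 0.54 (adjusted p = 0.0172) with overlapping arrays. SEC24D did not pass when any 1 of the control shRNA arrays or vehicle replicate 2 or 3 was left out (adjusted p 0.0547 to 0.135), CALR without control shRNA replicates 2 or 3 or vehicle replicate 2 (0.0515 to 0.0997), and DNAJC3 without control shRNA replicate 3 or vehicle replicates 2 or 3 (0.0554 to 0.109). The sensors did not pass, at -0.27 for ERN1, -0.06 for EIF2AK3 and 0.08 for ATF6, and ERN1 passed without vehicle replicate 1 (adjusted p = 0.0181). HERPUD1 was the 1 member of the 6 that passed under every alternative tried.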

How the data were processed

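The 18 arrays were grouped by their labels. The deposited values are log2 signals of probe sets, computed by the authors with RMA. Besides RMA, the submitters' processing notes list limma and R 3.0.2. RMA gives every array a common distribution and understates changes of dim genes. Probe sets are named as on a 3' array, which does not match the whole-transcript labelling that the labels give, and which labelling was used is not settled. The design text's HT28 was read as HT29. Of 49395 probe sets (102 controls), the platform annotation tied 44994 to 1 gene symbol, 1832 to several and 2569 to none. Genes were named only from those with 1 symbol.

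Tests used limma 3.58.1 under R 4.3.3 (lmFit and eBayes, 6 groups, 12 residual degrees of freedom, prior 4.49), and the data.table package, version 1.17.8, two-sided, with Benjamini-Hochberg adjustment over 18132 genes within each comparison. Plots came from matplotlib 3.10.9 under Python 3.11.15. In simulated data of the WiDr AZ628 comparison with 200 of 18132 genes changed, the fit recovered 86% at 1.5-fold and 100% at 2-fold, with 16 false calls. The real comparison called far more genes, 23.4% higher and 21.1% lower. The simulated noise was drawn independently for each gene and array. These figures therefore need not carry over to the real comparison. Alternatives were averaging all probe sets of each gene, leaving out probe sets shared between transcripts (names ending in _s_at or _x_at), leaving out the dimmest 25% of genes, another quantile normalization, an intensity trend, the compared arrays alone, a replicate block, each array left out, and vehicle in place of the control shRNA. Throughout, shared between transcripts refers only to the endings _s_at and _x_at, and probe sets ending in _a_at were kept. No dim genes were left out of the main fit.

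Array values are given for the 3 sensors and, per comparison of a pair of groups, for the 6 members with the largest change among those that passed and did not overlap. The lack of overlap in members listed by this rule follows from the choice and is not a separate result. From other lists up to 3 genes with the largest change were eligible. SSR2, SSR3 and SSR4 were named outside this rule, after their values were seen. The members and lists were chosen with earlier results of these data known. Some genes of those lists were not analysed here. Protein sequences were not used here.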

Additional observations from a re-analysis of the deposited data

Results flagged for a closer look

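In 5 members the AZ628 effect differed between HT29 and WiDr by the test of the difference itself, given as HT29 minus WiDr. Of these, 3 were positive and 2 negative, against 4.06% and 5.13% of all genes. CREB3L1 differed by 0.95 (SE 0.15, adjusted p = 0.000386), with changes of -2.25 in HT29 and -3.20 in WiDr, and this passed under every alternative tried. DNAJB9 differed by 0.47 (adjusted p = 0.0227), with 1.08 in HT29 and 0.61 in WiDr. It did not pass without HT29 vehicle replicates 1 or 2, WiDr AZ628 replicate 3 or WiDr vehicle replicates 2 or 3 (0.0504 to 0.0642). HERPUD1 differed by -0.37 (adjusted p = 0.0177), with 0.49 in HT29 and 0.86 in WiDr. It did not pass without HT29 AZ628 replicate 2, HT29 vehicle replicate 3 or WiDr vehicle replicate 3 (0.0517 to 0.0527). SEC61A1 differed by 0.34 (adjusted p = 0.0234), with 0.23 in HT29 and -0.11 in WiDr. It did not pass without HT29 AZ628 replicates 1 or 2, HT29 vehicle replicate 2, WiDr AZ628 replicate 1 or WiDr vehicle replicate 3 (0.0504 to 0.0586). It was 0.21 in the mean of its probe sets and 0.16 without those shared between transcripts, and passed in neither. With the compared arrays alone DNAJB9, SEC61A1 and CREB3L2 did not pass (0.0635, 0.0533 and 0.0632). CREB3L2 differed by -0.27 (adjusted p = 0.0252), with 1.25 in HT29 and 1.52 in WiDr. It did not pass without HT29 AZ628 replicates 2 or 3, HT29 vehicle replicate 3, WiDr AZ628 replicate 2 or WiDr vehicle replicate 1 (0.0503 to 0.0696). Without probe sets shared between transcripts it turned to 0.015, with -0.017 in HT29 and -0.032 in WiDr, and in the mean of its probe sets it was -0.042 (adjusted p = 0.813). The first of these settings leaves only dim probe sets of CREB3L2. HYOU1 (0.26) passed without HT29 vehicle replicate 1 (0.0456).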

How the results depend on the processing

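With 3 arrays a group, small changes and dim genes limit what can be seen, and the cause of each shift below was not tested. When each array was left out in turn, the members called higher numbered 12 to 17 and lower 4 to 5 with AZ628 in WiDr, 13 to 18 and 4 to 4 in HT29, 8 to 10 and 6 to 6 with the IKKα shRNA, 1 to 3 and 0 to 2 for the difference between the lines' AZ628 effects, 5 to 7 and 8 to 11 for the shRNA effect minus the AZ628 effect, 16 to 17 and 3 to 5 for HT29 against WiDr, and 2 to 5 and 1 to 2 for the control shRNA against vehicle. With all probe sets of each gene averaged the difference between the AZ628 effects had 1 lower member, the shRNA effect minus the AZ628 effect 6 lower, and the control shRNA comparison 3 higher and 2 lower. Without probe sets shared between transcripts, which left 32 members, the difference between the AZ628 effects had 1 higher and 1 lower member, the shRNA effect minus the AZ628 effect 6 lower, HT29 against WiDr 3 lower, and the control shRNA comparison 2 lower. With the compared arrays alone the difference between the AZ628 effects had 1 higher and 1 lower member, HT29 against WiDr 3 lower, and the control shRNA comparison 2 higher. For the control shRNA, quantile normalization gave 2 higher and 2 lower and an intensity trend 2 lower. With vehicle in place of the control shRNA, 10 members were positive in the shRNA effect minus the AZ628 effect.

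CREB3L2 turned its sign without probe sets shared between transcripts, to -0.032 with AZ628 in WiDr, -0.017 in HT29, 0.38 with the IKKα shRNA, 0.015 for the difference between the lines, 0.41 for the shRNA effect minus the AZ628 effect and -0.37 for the control shRNA. That setting drops the bright probe set of CREB3L2 and leaves only dim ones, so these values read its direction poorly. SSR1 turned to 0.079 for the shRNA effect minus the AZ628 effect under that setting. In the mean of the probe sets CREB3L2 turned to 0.10 with the IKKα shRNA and -0.11 with the control shRNA, and EDEM1 to -0.026 with the control shRNA. Same-numbered arrays of compared groups showed little shared deviation (correlations of -0.23 to 0.18). The same-numbered array was the closest partner for some replicates and not for others. With so few arrays in a group, this check cannot decide whether the replicate numbers pair the samples. With the replicate block, SPCS2 lost its call with AZ628 in WiDr (0.17, adjusted p = 0.0539), EDEM1 lost its call in the shRNA effect minus the AZ628 effect (-0.22, 0.0586), and CALR passed between the lines (0.40, 0.0415). It changed no other member's call.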
